A study of Bos taurus with 12 samples.

Results

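The transcripts described here encode the protein parts of the 2 ribosomes of an animal cell and the initiation and elongation factors that work on them. Members were chosen by gene symbol alone: every gene with a single-symbol probe set whose symbol begins as a cytosolic ribosomal protein (RPL, RPS), a mitochondrial ribosomal protein (MRPL, MRPS), an initiation factor (EIF1 to EIF6) or an elongation factor (EEF1, EEF2), leaving out the EIF2AK and RPS6K kinases. The rule found 182 of 9155 named genes, with 243 probe sets among 24016 tested. A gene with several probe sets, as 47 members had, was represented by the brightest. Classed by symbol, 43 members fell to the cytosolic large subunit, 24 to the cytosolic small, 43 to the mitochondrial large and 24 to the mitochondrial small subunit. The others were 35 initiation factors, 7 elongation factors and 6 partners and modifiers. These 6, such as EIF4EBP1 and EEF2K, have matching symbols although they are no subunit or factor. Because classes follow names, the cytosolic large subunit holds the pseudogene RPL15P and the elongation factors hold EEF1E1, part of a synthetase complex.

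The cytosolic ribosome translates messages made in the nucleus, and the mitochondrial ribosome makes a few membrane subunits of the respiratory chain. Initiation factors bring the first transfer RNA and the message to the small subunit, and elongation factors carry each later transfer RNA and move the ribosome along. Transcripts of cytosolic ribosomal proteins and of several factors, among them EEF1A1, EEF2 and the poly(A)-binding protein PABPC1, begin with a run of pyrimidines through which growth signals control their translation, so that protein output can change without a change in transcript level. Chromaffin cells make large amounts of secreted peptide and catecholamine enzymes and depend on this machinery.

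Cultured bovine chromaffin cells, which secrete catecholamines in the adrenal medulla, formed 4 groups: untreated cells, cells kept for 24 h with 10 nM IL6 or with 1 nM of human IFNα (interferon alpha), and cells kept for 6 h with 10 µM histamine. There were 3 single-colour Affymetrix arrays per group, 12 in all. The submitters call the triplicates technical, so p-values measure the spread between these arrays and not that between cultures or animals, whose strain, age and number the sources used here do not state. The time of the untreated cells is likewise unstated, and dose and time differ between agents, so responses to the 3 agents are set side by side and only IL6 and IFNα, at 24 h each, are compared directly.

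Values are RMA levels on the log2 scale, where a difference of 1 is a doubling. A member is said to have risen or fallen where limma's Benjamini-Hochberg adjusted p over all probe sets was under 0.05, and to be called where its change was also at least 1.5-fold. Array values are given in the order of repeats 1, 2 and 3. Repeats of a group correlated at 0.993 to 0.998 over all probe sets. Markers of the labelled cell were bright, with TH, CHGA and PENK at 13.45, 13.62 and 13.89 in untreated cells, and the 9 of 12 chromaffin markers measured summed to 16.12 to 16.16 on untreated arrays, 16.08 to 16.17 after IL6, 16.13 to 16.24 after IFNα and 16.35 to 16.39 after histamine. Sums were taken on the linear scale, where the brightest markers weigh most, and are given in log2. The 10 of 12 cortex markers measured lay at 10.95 to 11.01 on untreated arrays, 10.64 to 10.69 after IL6, 10.55 to 10.59 after IFNα and 11.47 to 11.50 after histamine. For the 12 of 12 fibroblast and mural markers these ranges were 14.18 to 14.24, 13.95 to 14.06, 14.03 to 14.10 and 14.27 to 14.31. For the 10 of 12 leukocyte markers they were 9.48 to 9.55, 10.28 to 10.46, 9.38 to 9.51 and 9.73 to 9.82, with CD79A, PTPRC and TYROBP below the lower quartile of an array (5.11) in every group. For the 11 of 12 endothelial markers they were 9.50 to 9.54, 9.21 to 9.41, 9.17 to 9.21 and 9.27 to 9.42, with FLT1, KDR and VWF below that quartile. For the 6 of 9 Schwann and glial markers they were 10.47 to 10.52, 10.69 to 10.74, 10.14 to 10.20 and 10.60 to 10.67. Taken singly, 2 of the 10 leukocyte markers were called higher and 1 lower after IL6, with a median change of 0.13. Over all probe sets 1.44% were called higher and 0.949% lower. Of the 12 fibroblast and mural markers 9 rose and 0 fell after histamine, with a median of 0.35. Over all probe sets 15.1% rose and 16.4% fell. Glycolysis and hypoxia genes stood 0.59 and 0.90 above untreated on IL6 repeats 2 and 3 and 0.64 above on IFNα repeat 3, against 0.16 or less on the other treated arrays. The part of these markers in the results below was not tested, and in cultures that hold several cell types fewer cells of a type cannot be told apart from less RNA per cell.

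Cytosolic ribosomal protein probe sets were among the brightest on the arrays. The median level over 12 arrays was 13.08 for the large subunit and 13.39 for the small subunit, and 57 of 67 cytosolic members lay above 12. The arrays' highest values were 14.01 to 14.14, so a small change in these members does not show that the transcript was stable. RPL37A, RPL5 and RPL21 were brightest in the large subunit and RPS2, RPS15 and RPS4Y1 in the small one. RPL37, the muscle-type paralogue RPL3L and RPS19 read 5.06, 5.27 and 5.40, close to the lower quartile of an array, as did EEF2KMT, EEF1AKMT3 and EEF1A2 (under 6). Small differences in these 6 members rest on dim signal. Mitochondrial members lay in mid-range, with medians of 9.14 and 8.54 and with MRPL27 and MRPS6 brightest and MRPL46 and MRPS25 dimmest of their subunits. Initiation factors had a median of 10.63, with EIF4A2, EIF1 and EIF3E brightest and EIF2B3, EIF4E2 and EIF2D dimmest. Elongation factors had a median of 12.75, and EEF1A1 read 14.05, at the top of the scale. These are probe set brightnesses, which also depend on the probes, and they do not rank the transcripts by amount.

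The number of members that passed the adjusted p was largest after histamine and smallest after IL6. After IL6, 12 members rose and 15 fell; over all probe sets 6.68% rose and 10.7% fell. After IFNα, 13 rose and 59 fell, against 6.74% and 9.99% of all probe sets. After histamine, 52 rose and 53 fell, against 15.1% and 16.4%. Calls at 1.5-fold were few in each comparison, 0 after IL6, 4 after IFNα and 7 after histamine, so most of these changes were small. The 3 comparisons share the same untreated arrays. The plot of changes by class shows the members one by one.

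**Figure D1:**
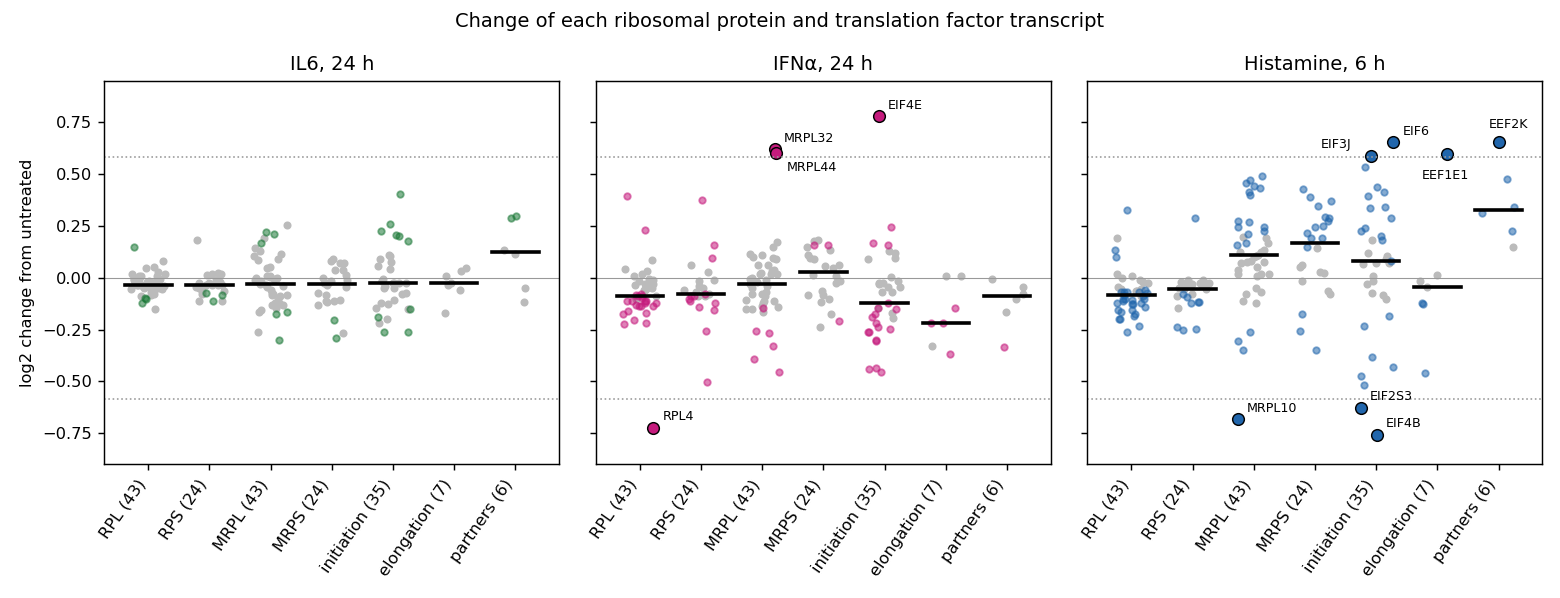
Log2 change from untreated (vertical axis) of each of the 182 members in IL6 (left), IFNα (middle) and histamine (right), by class with the number of members; bars are class medians, grey points missed the adjusted p, coloured points passed it, outlined points were also called, and dotted lines mark 1.5-fold. Cytosolic members cluster just below 0 after IFNα and histamine, and the largest changes belong to single factors and to RPL4, MRPL32, MRPL44 and MRPL10.

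The first comparison asked what IL6 does to these transcripts. IL6 changed no member by 1.5-fold, and its largest effect was a rise of EIF1B, a paralogue of the start-codon selection factor EIF1. EIF1B read 11.43, 11.41 and 11.44 on untreated arrays and 11.85, 11.82 and 11.82 after IL6. The groups did not overlap, as was so for 33.9% of all probe sets, and the rise was 0.40 on the log2 scale (SE 0.03, n = 3 against 3; limma, adjusted p = 4.39e-07). EIF1 itself, represented by another probe set, changed by 0.08 and did not pass.

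With 0 members called by limma after IL6, against 2.39% of all probe sets (1.44% higher and 0.949% lower), 56 of 182 members had an unadjusted p under 0.05, as did 7456 of 24016 probe sets. EIF6, which binds the large subunit and keeps the subunits apart, read 10.10, 10.20 and 10.18 in untreated cells and 10.35, 10.47 and 10.44 after IL6, a rise of 0.26 without overlap. EIF4A1, the helicase of the cap-binding complex, rose by 0.23. EIF4E, which binds the cap, rose by 0.21, and EIF4G1, the scaffold of that complex, by 0.18. EIF4EBP1, the repressor that takes EIF4E away from the scaffold, read 7.22, 7.52 and 7.57 after IL6 against 7.08, 7.23 and 7.10. Its IL6 arrays overlapped the untreated ones, with the lowest value on the repeat whose hypoxia genes were not raised. Its change was 0.30 (SE 0.09, limma adjusted p = 0.032) with all arrays. It was 0.08 when the 3 arrays with raised hypoxia genes were dropped, a fit that leaves 1 IL6 array and takes its spread from the other groups. The EIF4EBP1 change missed the adjusted p without untreated repeat 1 or 3, without IL6 repeat 2 or 3 and with the 2 groups alone. EEF1AKMT3, a methyltransferase of EEF1A, was dim and changed by 0.29.

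Falls after IL6 were of the same size. EIF3E, a subunit of the eIF3 complex that joins message and small subunit, read 12.21, 12.21 and 12.17 untreated and 11.97, 11.92 and 11.91 after IL6, a fall of 0.26 without overlap (SE 0.03). EIF2S3, the subunit of eIF2 that holds the first transfer RNA, fell by 0.26, and by 0.15, no longer past the adjusted p (0.09), without untreated repeat 2. EIF2S3 also missed the adjusted p without IL6 repeat 1 or IL6 repeat 3, with arrays centred on their median, with eBayes without a trend and with the 2 groups alone. EIF4B, which stimulates the helicase, fell by 0.19. Among mitochondrial proteins MRPL57, MRPS6 and MRPS36 fell by 0.30, 0.29 and 0.20, although another MRPL57 probe set changed by -0.17 and did not pass. Of 67 cytosolic members 1 rose, RPL38 by 0.15, and 6 fell, by 0.12 or less, against 6.68% and 10.7% of all probe sets. That count of falls rested on small differences: it was 0 without untreated repeat 1 or untreated repeat 2, between 1 and 3 without any of the 3 IL6 repeats or histamine repeat 2, and 0 with arrays centred on their median or eBayes without a trend, while it was 10 with quantile normalization and 15 with array weights. The class medians after IL6 lay between -0.04 and -0.02 for ribosomal proteins and both groups of factors, against 0.00 for all probe sets. The median of the 12011 brighter probe sets was -0.05, so these class medians were no lower than that of bright probe sets in general.

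The second comparison asked what IFNα does to them. Here 4 members were called, EIF4E, MRPL32 and MRPL44 higher and RPL4 lower, against 3.36% of all probe sets (2.18% higher and 1.18% lower). In each of the 4 the treated arrays lay apart from the untreated ones, as did those of 32.9% of all probe sets. Smaller falls were spread over eIF3, the elongation factors and the cytosolic ribosome.

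RPL4, a large-subunit protein that lines the exit tunnel, stood apart from the other cytosolic proteins. It read 13.37, 13.39 and 13.34 on untreated arrays, 13.37, 13.32 and 13.30 after IL6, 12.60, 12.69 and 12.64 after IFNα and 13.38, 13.34 and 13.35 after histamine. The 3 IFNα arrays were the lowest of all 12, by more than the whole range of the others. RPL4 fell by 0.72 after IFNα (SE 0.03; limma, adjusted p = 5.77e-11), with changes of -0.04 after IL6 and -0.01 after histamine that did not pass. One probe set represents this gene. RPS7, of the small subunit, came next: it read 13.06, 13.07 and 13.03 untreated and 12.43, 12.62 and 12.60 after IFNα, a fall of 0.50 (SE 0.04) without overlap that did not reach 1.5-fold. Its 2 dimmer probe sets gave -0.33 and 0.06, the second of which did not pass. RPS6, the small-subunit protein phosphorylated by the S6 kinases, read 13.62, 13.50 and 13.49 untreated and 13.26, 13.30 and 13.28 after IFNα, and fell by 0.26.

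Of the 67 members of the cytosolic ribosome 32 fell and 5 rose after IFNα, against 9.99% and 6.74% of all probe sets. The median was -0.09 in the large and -0.08 in the small subunit, against -0.02 for all probe sets and -0.04 for the 12011 brighter ones. Their mean stood 0.06 to 0.08 below untreated on each IFNα array. The 5 that rose were RPL3L and RPS19 (0.39 and 0.38, both dim), RPL7L1 (0.23), RPS27L (0.16) and RPS12 (0.10). RPS19 no longer passed without IFNα repeat 3 or untreated repeat 3, or with the mean of its 2 probe sets (0.13). RPL7L1 and RPS27L are paralogues of ribosomal proteins, and RPS27L is a p53 target. Of proteins often used as references, RPLP0 fell by 0.11 and RPL3 by 0.08. Over the alternatives the changes of RPLP0 and RPL3 were as small as -0.03 and -0.0004. RPS27 changed by -0.08, a sign that turned under cyclic loess. The count of falls depended on scaling: it was 25 with arrays centred on their median, 29 with quantile normalization and 8, with 12 rises, under cyclic loess, where the median of the cytosolic ribosome was 0.00. It was 8 when eBayes was run without a trend and 21 without untreated repeat 2. RPL4, RPS7 and RPS6 fell under all 3 scalings.

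EIF4E rose more than any other member after IFNα. It read 11.00, 10.88 and 11.01 untreated, 11.25, 11.17 and 11.09 after IL6, 11.76, 11.72 and 11.75 after IFNα and 11.40, 11.35 and 11.33 after histamine. All treated arrays were above the untreated ones, and the IFNα arrays were highest. The rise was 1.72-fold after IFNα (log2 0.78, SE 0.05; limma, adjusted p = 7.93e-09) and 0.40 on the log2 scale after histamine. Its repressor EIF4EBP1 went the other way after IFNα, to 6.79, 6.80 and 6.82, a fall of 0.33 (SE 0.09; limma, adjusted p = 0.0178), although it rose after histamine. The related cap-binding proteins EIF4E2 and EIF4E3 fell by 0.19 and 0.30. EIF4A2 changed by -0.02 and did not pass, EIF4A1 fell by 0.12, EIF4G1 rose by 0.16 and EIF4B fell by 0.24.

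The eIF3 complex was lower after IFNα. Of its 12 measured subunits 9 fell and none rose, with a median of -0.20, while 9.99% of all probe sets fell. EIF3E read 11.76, 11.82 and 11.70, a fall of 0.44 from untreated without overlap. EIF3L, EIF3I, EIF3B, EIF3H, EIF3J, EIF3G, EIF3CL and EIF3K fell by 0.14 to 0.30. The other 3 subunits, EIF3A, EIF3D and EIF3M, had changes that did not pass. Under cyclic loess 6 of the 12 fell, with a median of -0.15, and 6 fell without untreated repeat 2, without IFNα repeat 3 or with eBayes without a trend.

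Among the other initiation factors EIF1 read 12.55, 12.57 and 12.60 untreated and 12.06, 12.14 and 12.20 after IFNα, a fall of 0.44 (SE 0.03) without overlap. A second, dim EIF1 probe set changed by 0.01 and did not pass. EIF2S3 read 10.79, 11.17 and 10.90 untreated and 10.47, 10.50 and 10.53 after IFNα, a fall of 0.45, while EIF2S1, the eIF2 subunit phosphorylated in stress, rose by 0.17. EIF2B3, part of the exchange factor of eIF2, rose by 0.24. EIF6 and EIF1AX had changes that did not pass.

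Of 7 elongation factors 4 fell after IFNα and 3 did not pass, with a median of -0.22, while 9.99% of all probe sets fell. EEF2, the translocase, read 13.18, 13.21 and 13.21 untreated and 12.81, 12.85 and 12.84 after IFNα, a fall of 0.37 (SE 0.03) without overlap. EEF1B2, EEF1G and EEF1D, the exchange factor subunits that recharge EEF1A, fell by 0.22, 0.22 and 0.15. EEF1A1, which delivers transfer RNA, read 14.01 to 14.11 untreated and 14.00 to 14.12 after IFNα on the probe set at the top of the scale, a change of 0.01. Its other probe set, with a mean of 11.91, gave -0.45 after IFNα, -0.37 after histamine and -0.24 after IL6, all past the adjusted p, so the brightest probe set and the second do not give the same answer for this gene. EEF2K, the kinase that stops EEF2, changed by -0.01 after IFNα. Under cyclic loess 3 of the 7 elongation factors fell.

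For the mitochondrial ribosome the counts after IFNα were near those of all probe sets: 4 of 67 members rose and 7 fell, against 6.74% and 9.99%, with medians of -0.03 in the large and 0.03 in the small subunit. MRPL32, a large-subunit protein matured by a mitochondrial protease, read 8.64, 8.81 and 8.66 untreated and 9.28, 9.33 and 9.36 after IFNα, and rose by 0.62 (SE 0.07; limma, adjusted p = 2.77e-05). MRPL44, a large-subunit protein with a ribonuclease III fold, read 7.94, 7.90 and 7.97 untreated and 8.62, 8.57 and 8.43 after IFNα, and rose by 0.60 (SE 0.08; limma, adjusted p = 5.27e-05). Both were well above all untreated and IL6 arrays. Without IFNα repeat 1 MRPL44 was below the fold minimum (0.56). MRPL21 read 9.57, 9.74 and 9.64 untreated and 9.26, 9.22 and 9.11 after IFNα, a fall of 0.45. MRPL23, chosen after its values were seen because 3 probe sets represent it, fell by 0.34 to 0.39 on all of them. MRPL12, which also binds the mitochondrial RNA polymerase, fell by 0.27, and MRPS18B rose by 0.16. The count of falls was 2 without untreated repeat 2 and 3 without IFNα repeat 3, the count of rises was 2 without untreated repeat 1 or IFNα repeat 2, and cyclic loess gave 12 rises and 5 falls.

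**Figure D2:**
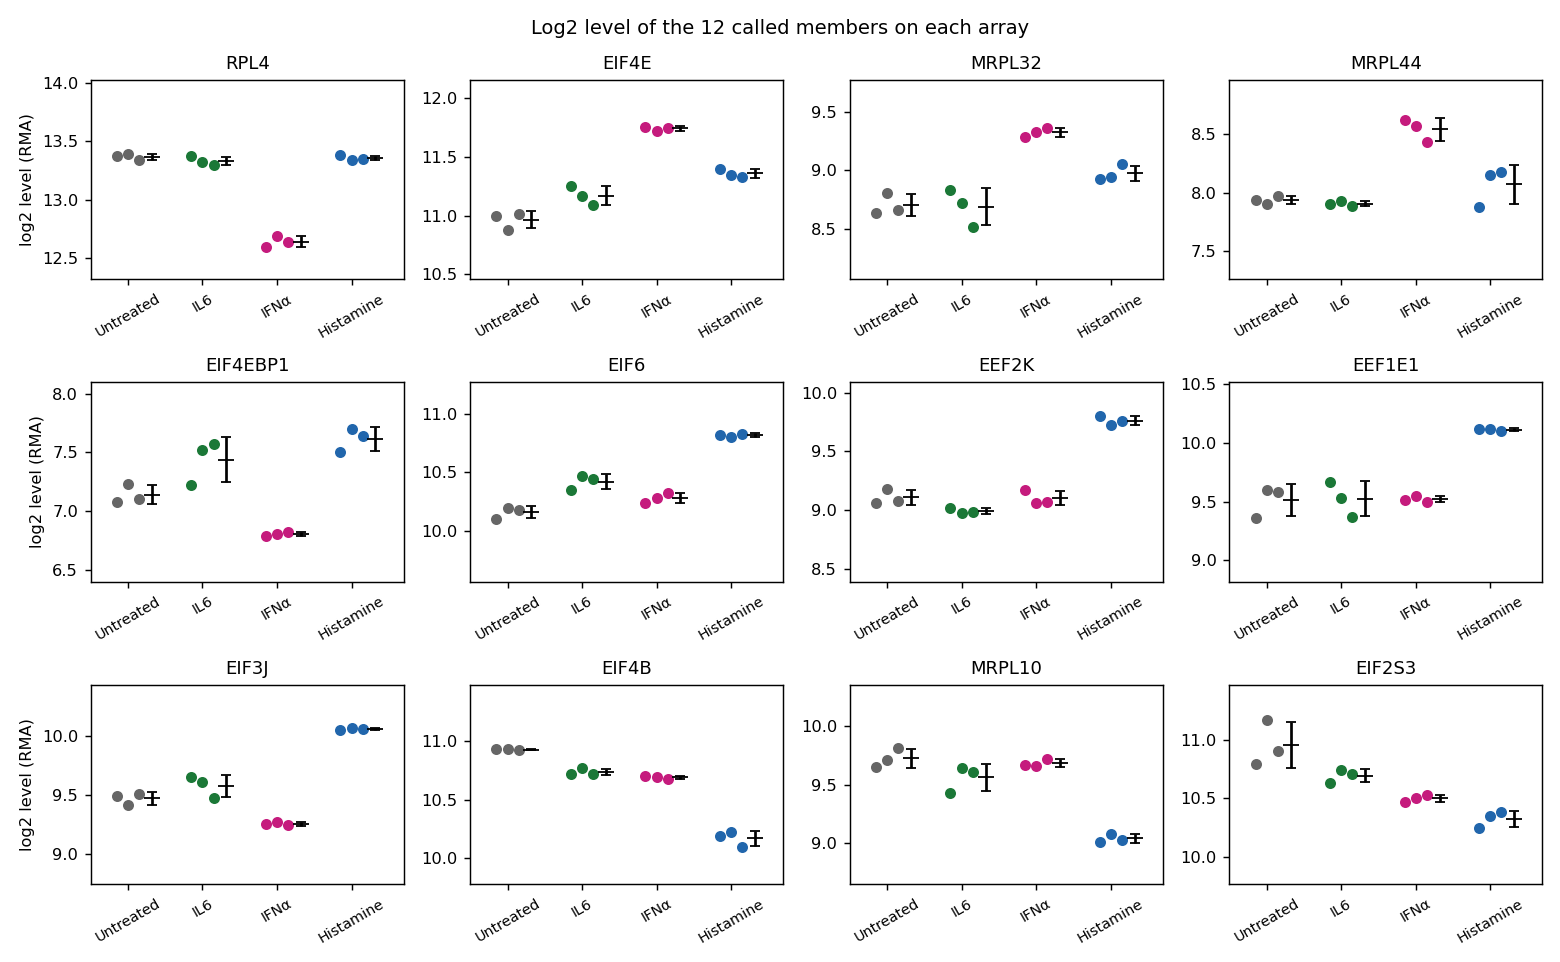
Log2 RMA level (vertical axis, the same span of 1.7 in every panel) of the 12 members called in any comparison, on the 3 arrays of each group; the tick and bar beside the points are the mean and SD. RPL4 is low and EIF4E, MRPL32 and MRPL44 are high on the 3 IFNα arrays, while EIF6, EEF2K, EEF1E1 and EIF3J are high and EIF4B and MRPL10 low on the 3 histamine arrays.

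The third comparison asked what histamine does after 6 h. It raised EIF6, EEF2K, EEF1E1 and EIF3J and lowered EIF4B, MRPL10 and EIF2S3 by at least 1.5-fold, 4 members higher and 3 lower, against 5.7% of all probe sets (2.99% higher and 2.71% lower). In each of the 7 the histamine arrays lay apart from the untreated ones, as did those of 43.7% of all probe sets. Past the adjusted p alone, more mitochondrial ribosomal proteins rose than fell, more cytosolic ones fell than rose, and initiation factors went both ways.

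Within the cap-binding complex the subunits went both ways. EIF4B read 10.93, 10.93 and 10.92 untreated, 10.72, 10.77 and 10.72 after IL6, 10.70, 10.69 and 10.68 after IFNα and 10.19, 10.22 and 10.10 after histamine. Every treated array was below every untreated one, and the histamine arrays were lowest. EIF4B fell by 0.76 after histamine (SE 0.04; limma, adjusted p = 5.23e-09), a fold of 1.69. EIF4A2 read 13.27, 13.21 and 13.27 untreated and 12.79, 12.80 and 12.61 after histamine, a fall of 0.52 (SE 0.04). Its paralogue EIF4A1 read 11.16, 11.24 and 11.17 untreated and 11.60, 11.64 and 11.64 after histamine, a rise of 0.44 (SE 0.04). The 2 helicase transcripts thus moved in opposite directions, neither by 1.5-fold. EIF4G1 read 10.12, 10.13 and 10.11 untreated and 10.67, 10.64 and 10.65 after histamine, a rise of 0.53 without overlap. EIF4A3, the helicase of the exon junction complex, rose by 0.24. EIF4EBP1 read 7.50, 7.70 and 7.64 against 7.08, 7.23 and 7.10, a rise of 0.48 without overlap.

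EIF2S3 was the third called fall. It read 10.79, 11.17 and 10.90 untreated and 10.25, 10.35 and 10.38 after histamine, without overlap, and fell by 0.63 (SE 0.07; limma, adjusted p = 1.41e-05). A second probe set of the gene gave the same change of -0.63 and was also called. Without untreated repeat 2, the highest of its group, the change was -0.52 and below the fold minimum. EIF2S1 read 9.93, 9.96 and 9.95 untreated and 10.26, 10.27 and 10.32 after histamine, a rise of 0.34. The 2 measured subunits of eIF2 therefore moved apart.

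The eIF3 subunits split as well after histamine, 3 of 12 higher and 4 lower, against 15.1% and 16.4% of all probe sets. EIF3J, a loosely bound subunit that affects how eIF3 sits on the small subunit, read 9.49, 9.41 and 9.51 untreated and 10.05, 10.07 and 10.06 after histamine, a rise of 0.59 (SE 0.05; limma, adjusted p = 8.11e-07). This was the smallest called change, and it was below 1.5-fold under quantile normalization (0.56), cyclic loess (0.58) and without untreated repeat 2 (0.56). EIF3B, a core subunit, rose by 0.42, with 0.53 on its second probe set. EIF3E read 11.75, 11.72 and 11.70, a fall of 0.47, and EIF3D, which can itself bind the cap of some messages, read 11.02, 10.99 and 10.81 against 11.36, 11.37 and 11.38, a fall of 0.43. Histamine arrays of both lay below all untreated arrays. EIF6 read 10.82, 10.80 and 10.83 after histamine against 10.10, 10.20 and 10.18, a rise of 0.66 (SE 0.04; limma, adjusted p = 6.24e-08), and IL6 arrays lay between. EIF1AX and EIF1 rose by 0.34 and 0.18. In all, 14 of 35 initiation factors rose and 8 fell after histamine, against the same 15.1% and 16.4%, with a median of 0.08.

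EEF2K, the calcium- and calmodulin-dependent kinase that inhibits EEF2, read 9.06, 9.18 and 9.08 untreated, 9.02, 8.97 and 8.98 after IL6, 9.17, 9.06 and 9.07 after IFNα and 9.80, 9.72 and 9.76 after histamine. Histamine arrays alone were high, and the rise was 0.65 (SE 0.05; limma, adjusted p = 3.12e-07), with 0.78 on a second probe set that was also called. Its substrate EEF2 fell by 0.12. EEF1E1, which despite its symbol is a part of the multi-aminoacyl-tRNA synthetase complex, read 9.36, 9.60 and 9.58 untreated and 10.12, 10.12 and 10.10 after histamine, a rise of 0.60 (SE 0.07; limma, adjusted p = 1.91e-05). It was below the fold minimum without untreated repeat 1 (0.52) and under quantile normalization (0.56). EEF1A2, the EEF1A form of muscle and neurons, was dim and fell by 0.46, from 6.19, 6.21 and 6.24 to 5.45, 5.89 and 5.92, and EEF1G fell by 0.13. Of the 6 partners and modifiers 5 rose after histamine, against 15.1% of all probe sets, with a median of 0.33.

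**Figure D3:**
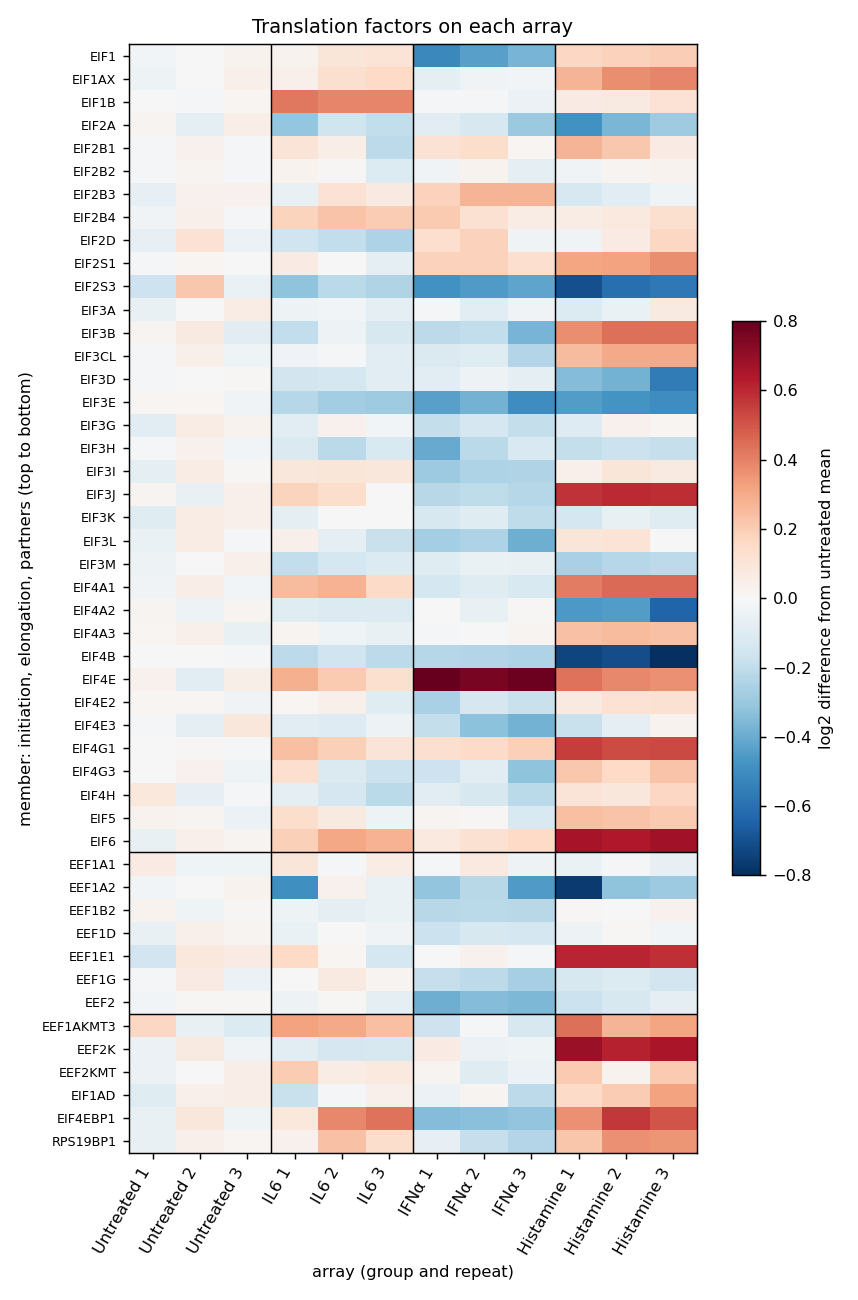
Difference in log2 level from the untreated mean (colour, red higher and blue lower, scale -0.8 to 0.8) of the 35 initiation factors, 7 elongation factors and 6 partners and modifiers (rows) on each of the 12 arrays (columns). EIF4E is highest on the IFNα arrays, most eIF3 rows are pale blue there, and the histamine columns hold both the deepest blue (EIF4B, EIF2S3) and red rows (EIF6, EEF2K, EEF1E1, EIF3J).

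More mitochondrial ribosomal proteins rose than fell after histamine. Of 67 members 28 rose, 7 fell and the others did not pass, against 15.1% and 16.4% of all probe sets, with medians of 0.11 in the large and 0.17 in the small subunit. No rise reached 1.5-fold. MRPL16 had the largest, reading 9.33, 9.38 and 9.31 untreated and 9.78, 9.82 and 9.90 after histamine, a rise of 0.49 (SE 0.06) without overlap. MRPL20, MRPL15, MRPL48, MRPL35 and MRPS35 followed with rises of 0.43 to 0.47, and MRPL32 rose by 0.27. MRPL16, MRPL15, MRPL48, MRPL35 and MRPS35 were picked once their values were known. The called exception was MRPL10, a protein of the large subunit's stalk base, which read 9.65, 9.71 and 9.81 untreated and 9.01, 9.08 and 9.03 after histamine, and fell by 0.68 (SE 0.06; limma, adjusted p = 8.87e-07) from arrays that did not overlap. MRPL57, MRPS6 and MRPS36 fell by 0.35, 0.26 and 0.17. The count of rises was 26 to 33 under the scalings tried and with eBayes without a trend. Mitochondrial ribosomal proteins with other symbols, which the rule leaves out, went the same way: DAP3, CHCHD1, PTCD3 and AURKAIP1 rose by 0.18 to 0.25 after histamine, and GADD45GIP1 had a change that did not pass. The mean of the 67 was 0.06, 0.13 and 0.15 above untreated on the 3 histamine arrays and -0.05, 0.03 and 0.02 on the untreated ones.

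More cytosolic ribosomal proteins fell than rose after histamine, by little. Of 67 members 35 fell and 4 rose, against 16.4% and 15.1% of all probe sets. Medians were -0.08 in the large and -0.05 in the small subunit, against 0.00 for all probe sets and -0.01 for the 12011 brighter ones. Their mean stood 0.06 to 0.08 below untreated on each histamine array, while the untreated arrays lay between -0.01 and 0.01. RPLP0, of the stalk, fell by 0.20, RPL3 by 0.16, RPL22 by 0.10 and RPS27L by 0.24, while RPS6 and RPL4 had changes that did not pass. The 4 that rose were RPL7L1 (0.33), RPS19 (0.29, dim), RPL26L1 (0.13) and RPL27 (0.10), so paralogues of ribosomal proteins were again among them. Probe sets of close paralogues can bind each other's transcript, which was not tested. Of 61 dimmer probe sets of the members 3 were called after histamine, against 5.7% of all probe sets. They belong to EEF2K, EIF2S3 and RPS4Y1. The brightest RPS4Y1 probe set was not called and changed by -0.04 to 0.02 over the fits that used it, so the RPS4Y1 probe sets disagree. The number of falls was 20 with arrays centred on their median, 26 with quantile normalization, 40 under cyclic loess, 12 with eBayes without a trend and 22 without histamine repeat 1. The number of rises was 1 or 2 without any of the untreated repeats, histamine repeat 1 or histamine repeat 3. RPSA and RACK1, small-subunit proteins that the symbol rule leaves out, fell by 0.20 and 0.10 after histamine and by 0.14 and 0.19 after IFNα.

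**Figure D4:**
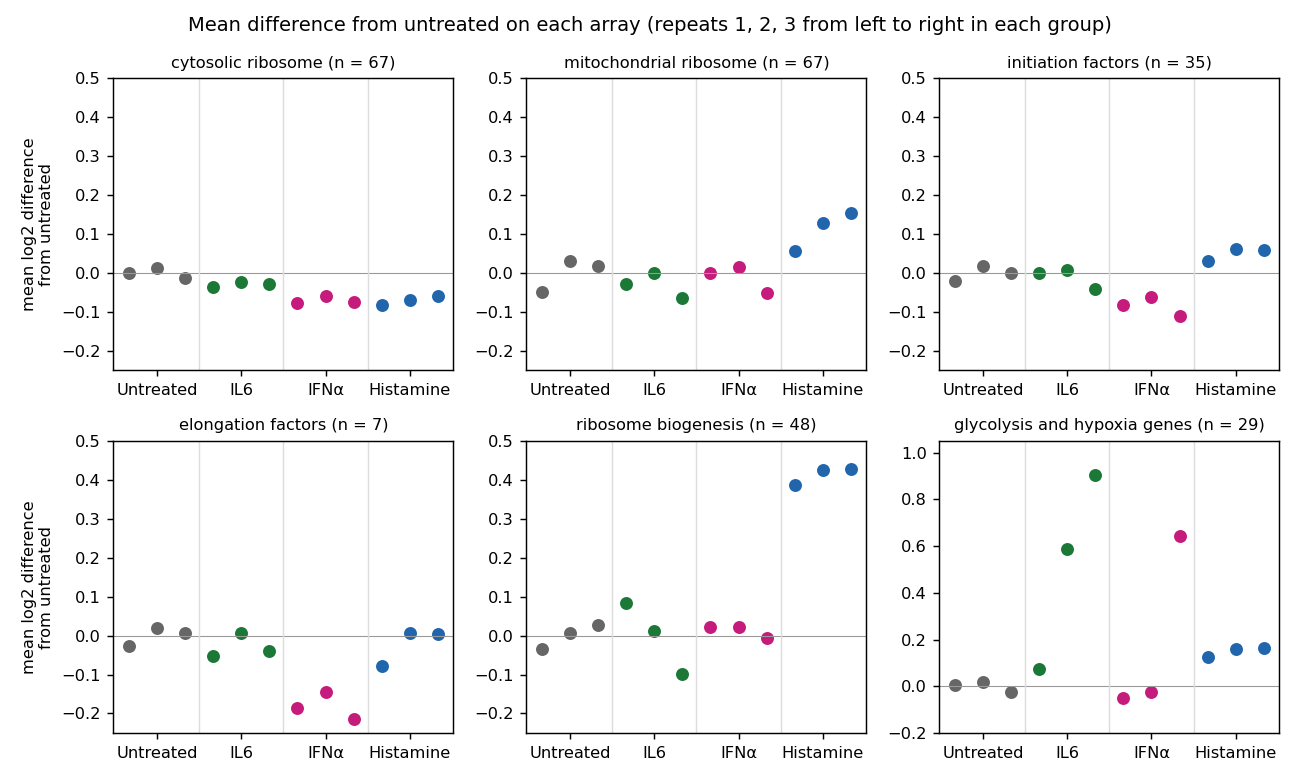
Mean log2 difference from untreated (vertical axis; the last panel has a wider scale) of 4 member classes, of 48 ribosome biogenesis genes and of 29 glycolysis and hypoxia genes, on each of the 12 arrays, with repeats from left to right in each group. The cytosolic ribosome lies 0.06 to 0.08 below 0 on all IFNα and histamine arrays, and the mitochondrial ribosome is above 0 on the histamine arrays. Of the 3 arrays with raised hypoxia genes, IL6 repeat 3 and IFNα repeat 3 are the lowest of their groups for the mitochondrial ribosome (-0.06 and -0.05). They are also lowest for the initiation factors (-0.04 and -0.11). IL6 repeat 2 is the highest of its group for both classes (0.001 and 0.008).

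IL6 and IFNα, given for the same 24 h, were also compared directly. Of the members 4 were called, RPL4 and EIF4EBP1 higher after IL6 and MRPL32 and MRPL44 higher after IFNα, against 6.11% of all probe sets (2.82% higher and 3.29% lower after IL6). RPL4 was 0.69 higher after IL6 (SE 0.03; limma, adjusted p = 9.38e-11) and MRPL44 was 0.63 lower (SE 0.08), without overlap of the arrays in either, as was so for 38.7% of all probe sets, and both calls held under all alternatives except a minimum of 2-fold. EIF4EBP1 was 0.63 higher (SE 0.09) and MRPL32 0.63 lower (SE 0.07). Both were below the fold minimum without IL6 repeat 3 (0.57 and -0.55), as they were with the 3 hypoxia-high arrays dropped (0.43 and -0.48), and either change leaves 2 called members. EIF4E was 0.57 lower after IL6, just below 1.5-fold, and EIF1 0.52 higher. Past the adjusted p alone, 51 members were higher and 21 lower after IL6 than after IFNα, against 13.7% and 14.8% of all probe sets. Of these 72 members 22 lost the adjusted p with a change of scaling, and the sign of 2 turned. A second RPS27L probe set, with a mean of 5.88, was called lower after IL6 than after IFNα, with a difference of -0.81, and its brighter probe set differed by -0.27. RPS27L had fallen by 0.11 after IL6 and risen by 0.16 after IFNα.

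Side by side, 14 members passed the adjusted p in all 3 treatments, which share their untreated arrays. The share of all probe sets that passed in all 3 was not counted, so the 14 are a list and no sign of a trait of the members. Singly, 17.4%, 16.7% and 31.6% of all probe sets passed after IL6, IFNα and histamine. EIF2S3, EIF3E and EIF4B were lower after each treatment. EIF2S3 changed by -0.26, -0.45 and -0.63 after IL6, IFNα and histamine, and the IL6 change did not pass under several alternatives. EIF3E changed by -0.26, -0.44 and -0.47, and EIF4B by -0.19, -0.24 and -0.76. EIF4E and EIF4G1 were higher after each, by 0.21, 0.78 and 0.40 and by 0.18, 0.16 and 0.53. EIF4EBP1 and EIF4A1 were higher after IL6 and histamine and lower after IFNα. MRPL13 did the same, with changes of 0.21, -0.15 and 0.21. The EIF4EBP1 rise after IL6 did not pass under several alternatives. The other 6 were MRPS6, RPL22, RPL31, RPS21, RPS27 and RPS27L.

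Genes that build ribosomes, rather than forming part of them, mostly rose after histamine. Of 48 measured ribosome biogenesis genes 36 rose and none fell past the adjusted p, 12 were called higher, and 46 had a positive change, with a median of 0.41. Over all probe sets 15.1% rose, 16.4% fell and 2.99% were called higher. GAR1, a protein of the particles that pseudouridylate ribosomal RNA, read 8.29, 8.32 and 8.40 untreated and 9.26, 9.22 and 9.31 after histamine, a rise of 0.93. GNL3, the nucleolar GTPase nucleostemin, read 7.66, 7.73 and 7.74 untreated and 8.62, 8.56 and 8.68 after histamine, a rise of 0.91. NOP10, a partner of GAR1, and BYSL, a factor of small-subunit assembly, rose by 0.85 and 0.84. For each of the 4 all histamine arrays were above all untreated arrays. The count of called genes was 10 to 14 over the alternatives that keep the fold minimum. After IL6 limma called 0 of the 48, against 2.39% of all probe sets, with a median of 0.00. Of the 48, 10 had an unadjusted p under 0.05, as did 7456 of 24016 probe sets. After IFNα 6 of the 48 rose and 3 fell, against 6.74% and 9.99% of all probe sets, and the next 2 genes were the called ones. After IFNα the RNA polymerase I subunit POLR1F rose by 0.65 and the transcription factor MYC fell by 1.46, from 9.29, 9.38 and 9.39 to 8.08, 8.09 and 7.52, with a list median of 0.01.

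**Figure D5:**
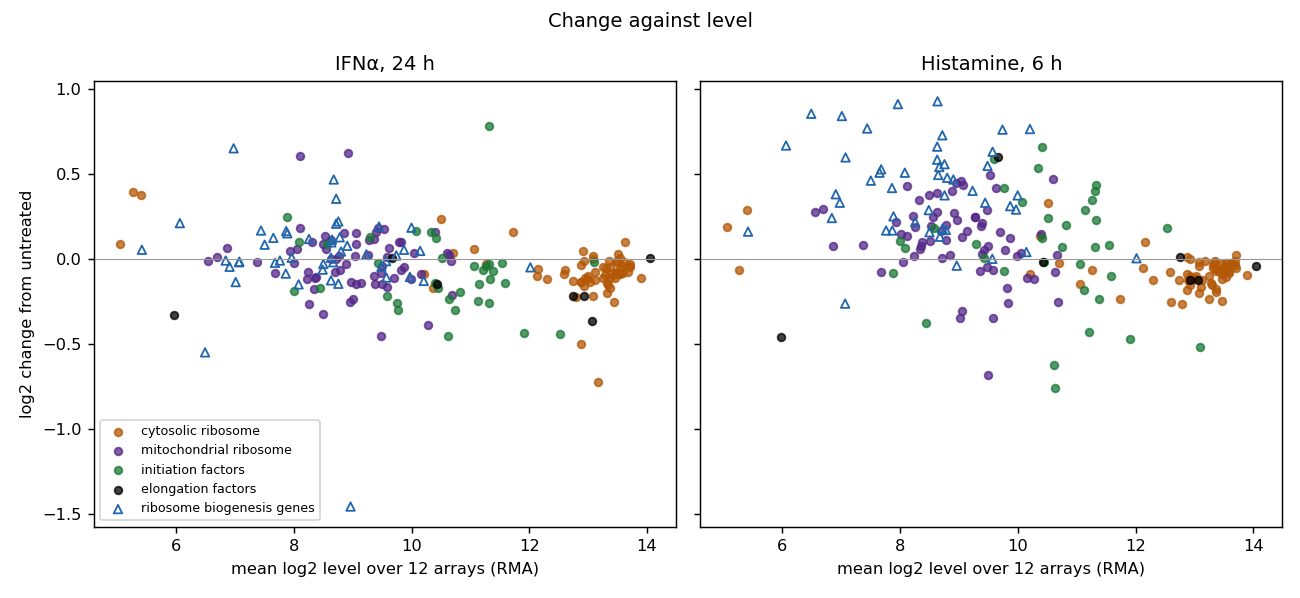
Log2 change from untreated (vertical axis) against the mean log2 RMA level over 12 arrays (horizontal axis) for ribosomal proteins, initiation and elongation factors and ribosome biogenesis genes, after IFNα (left) and histamine (right). Most cytosolic ribosomal proteins lie at the bright end with small negative changes. After IFNα RPL4 (-0.72) and RPS7 (-0.50) are lower, and the dim RPL3L (0.39) and RPS19 (0.38) are above 0. The ribosome biogenesis genes have a median change of 0.41 after histamine and 0.01 after IFNα.

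The remaining steps of translation were measured with 17 termination, recycling and mitochondrial factors. Histamine raised DENR, a recycling and reinitiation factor, by 0.85, GSPT1, the GTPase of termination, by 0.78, and ETF1, the release factor, by 0.63, and these 3 were called. DENR read 9.11, 9.25 and 9.22 untreated and 10.04, 10.04 and 10.06 after histamine, without overlap. Past the adjusted p 6 of the 17 rose after histamine and 2 fell, 2 rose after IFNα, and 1 rose and 1 fell after IL6. Over all probe sets 15.1% rose and 16.4% fell after histamine, with 2.99% called higher, 6.74% rose after IFNα, and 6.68% rose and 10.7% fell after IL6.

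Regulators of translation changed most in single genes. Of 22 measured, 3 rose and 5 fell after IL6, 2 rose and 4 fell after IFNα, and 7 rose and 7 fell after histamine. The shares over all probe sets were 6.68% and 10.7%, 6.74% and 9.99%, and 15.1% and 16.4%. Called at 1.5-fold were 0 of the 22 after IL6, 1 higher and 1 lower after IFNα, and 1 higher and 0 lower after histamine. Over all probe sets 2.39% were called after IL6. After IFNα 2.18% were called higher and 1.18% lower, and after histamine 2.99% and 2.71%. RPS6KA3, a kinase of the ERK pathway, was the called member after histamine, with a rise of 2.07 from 6.63, 6.75 and 6.61 to 8.72, 8.66 and 8.83. After IFNα SESN2, an inhibitor of mTORC1 signalling, rose by 0.89 and EIF2AK3, the eIF2 kinase of the endoplasmic reticulum, fell by 0.73. SESN2 read 8.50, 8.50 and 8.40 untreated and 9.32, 9.38 and 9.38 after IFNα. The poly(A)-binding proteins PABPC1 and PABPC4, chosen after their values were seen, fell by 0.54 and 0.41 after IFNα without reaching 1.5-fold. Of 12 listed interferon-induced inhibitors of translation 4 were measured, OAS1X, EIF2AK2, IFIT2 and IFIT5. All 4 were called higher after IFNα, by 3.93, 3.41, 1.99 and 1.96, against 2.18% of all probe sets. EIF2AK2, the kinase that phosphorylates EIF2S1, varied widely, reading 7.97, 6.00 and 6.16 untreated and 9.13, 10.24 and 11.00 after IFNα, still without overlap.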

How the data were processed

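Per the labels' protocols, biotin-labelled RNA of the cultured cells was hybridised to Affymetrix expression arrays for cattle, in a single colour. The authors deposited log2 expression values of 24128 probe sets computed by RMA, as the submitters' processing notes name it. No version is given in the sources used here, and RMA's scaling of arrays to each other can hide a shift shared by most transcripts. Of these, 112 control probe sets were left out and 24016 tested. Names came from the platform's probe table, and all 182 members were found by gene identifier, with the same symbol, in a table of cattle genes from RefSeq, where 1, RPL15P, is a pseudogene. Sequences were not used here.

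limma 3.58.1 in R 4.3.3 fitted a mean per group over 12 arrays (lmFit, eBayes with a trend), with Benjamini-Hochberg adjustment over all probe sets. SEs come from this fit. A call needs a 1.5-fold change or more beside an adjusted p below 0.05. The procedure was tested on simulated data. Named were every called member, the 5 largest rises and falls of each treatment past the adjusted p, a fixed panel of 26 genes (22 measured), the brightest and dimmest 3 of each class, and up to 4 called genes of each other list. Members listed in full for a count (the cytosolic members that rose, the eIF3 subunits, those past the adjusted p in all treatments) and EIF4E2, EIF4E3, EIF2B3, EIF4B and EIF4G1 after the cytokines, EIF3B and EIF3D, EIF4A3, EEF1B2, EEF1G and EEF1D, and RPSA and RACK1 were chosen after their values were seen. Members and lists were chosen with earlier results of these data known. Alternatives were other fold minimums, array weights, eBayes without a trend or robust, the brighter probe sets only, 3 further scalings, the compared groups alone, a block for the repeat number, all probe sets of a gene averaged, and arrays left out. Figures used matplotlib 3.10.9 in Python 3.11.15.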

Additional observations from a re-analysis of the deposited data

How the results depend on the processing

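No change in sign was seen for any called member under any alternative. With a minimum of 1.2-fold, 6 members were called after IL6, 18 after IFNα, 44 after histamine and 24 between IL6 and IFNα; with a minimum of 2-fold the last 3 counts were 0. Without the 3 arrays with raised hypoxia genes 2 were called between the cytokines. Past the adjusted p alone, eBayes without a trend left 17 members after IL6 and 37 after IFNα, against 27 and 72, and array weights gave 66 after IL6. Leaving out single arrays gave 0 to 0 called members and 16 to 32 past the adjusted p after IL6, 3 to 4 and 50 to 78 after IFNα, 5 to 7 and 85 to 108 after histamine, and 2 to 5 called between the cytokines. The low IL6 counts of 17, 16 and 17 came without untreated repeat 1, untreated repeat 2 and IL6 repeat 2, and the 2 between the cytokines without IL6 repeat 3.

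Scaling moved the balance of small changes. Rises and falls past the adjusted p after IFNα were 13 and 59 as deposited and 30 and 27 under cyclic loess. After IL6 they were 12 and 15 as deposited, 17 and 5 with arrays centred on their median and 21 and 15 under cyclic loess. After histamine they were 52 and 53 as deposited and 59 and 37 with centred arrays. Over all probe sets tested the same splits moved too, from 1604 and 2566 to 2205 and 1906 after IL6 with centred arrays. Past the adjusted p, the sign of EIF1B after histamine, of RPL5 and RPS27 after IFNα and of RPL10 and RPS2 between the cytokines turned with scaling; the cause was not tested.

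Repeat numbers were not taken as pairs in the main fit, although 7 of 18 same-numbered array pairs had correlated deviations over 0.1 (range -0.07 to 0.60). The highest were IL6 and IFNα repeats 1 (0.53) and repeats 3 (0.60). Different-numbered pairs of these groups ranged from -0.61 to 0.37. Whether arrays of one number share a source was not tested. The fit with the repeat number as a block gave 0, 4, 7 and 4 called members after IL6, IFNα and histamine and between the cytokines, and 34, 79 and 107 past the adjusted p. Technical repeats, 3 arrays a group and signals near the top of the scale limit what small changes can show.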
